A study of Mus musculus with 468 samples.

Results

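The SLC25 family of mitochondrial carriers was followed across 4 mouse adipose depots after treatment with FGF21. All probe sets whose platform gene symbol is Slc25a with a number were taken, except those of the citrate carrier Slc25a1 and the carnitine carrier Slc25a20. This gave 51 probe sets of 43681 and 39 genes of 21931 named genes. Of the 39 carriers, 27 have 1 probe set and 12 have 2, and for these the probe set with the highest mean log2 level over all arrays was used. This choice of probe set used the level alone and no response to treatment, though the family was chosen with earlier results of these data known. All 39 carriers could be tested, and none was removed for a low level.

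Custom Affymetrix arrays measured RNA of inguinal (IWAT, 120 arrays), epididymal (EWAT, 115), retroperitoneal (RPWAT, 114) and brown (BAT, 119) adipose tissue of male mice labelled as 8 weeks old. WT-chow and WT-HFD mice were C57BL/6 mice fed chow or a high fat diet, and db/db-chow mice were chow-fed C57BLKS/J mice that carry the db mutation, which removes the signalling form of the leptin receptor. The 4 arms of each model were saline BID (vehicle), WT FGF21 BID (dose 1.25 mg/kg), and the PEGylated variant PEG30-FGF21 Q108 BIW at 0.75 mg/kg (low dose) or 2.5 mg/kg (high dose), and tissue was taken at day 2 or day 5. This gives 96 groups, of which 87 hold 5 arrays, 6 hold 4 and 3 hold 3. Dissection followed dosing by about 6 h in vehicle and WT FGF21 mice but by about 30 h in PEG30-FGF21 Q108 mice, so that the agent, its schedule and the time since injection cannot be told apart. The db/db-chow mice differ from the others in strain as well as genotype.

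Values are RMA intensities on a linear scale, and changes are differences of log2 intensities, on which a change of 1 is a doubling. The median intensity of an array ranged from 11.2 to 31.0 over BAT arrays, from 23.5 to 42.6 in EWAT, from 23.1 to 36.2 in RPWAT and from 51.4 to 62.0 in IWAT. Each treatment was therefore compared with vehicle of the same depot, model and day, and levels of carriers are not compared between models, depots or probe sets. A gene was called at an adjusted p under 0.05 in limma. The depots were checked against their markers, whose sums, like the arrays, are not on 1 scale across depots. The summed intensity of 7 brown adipocyte markers was 26700 to 59700 on BAT arrays, at most 16300 in RPWAT and 1440 in EWAT, and reached 28300 on an IWAT array, within the BAT range. That of 4 adipocyte markers was at least 18700 on all arrays but 1. That IWAT array, of WT-HFD mice given WT FGF21 for 5 days (replicate 3), had a sum of 5520 and a median correlation of 0.898 with the other arrays of its depot and model. A second IWAT array, of db/db-chow vehicle mice at day 2 (replicate 2), had a median correlation of 0.882 and a sum of 43300. Labels do not say that arrays of a group came from separate cages or extractions, so that p-values measure the spread between the arrays as given. In whole tissue, fewer cells of a type and less RNA per cell cannot be told apart.

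SLC25 proteins are small integral membrane proteins, most of them in the inner mitochondrial membrane, which exchange nucleotides, phosphate, carboxylates, amino acids, cofactors and metal ions between the matrix and the cytosol. They set which substrates can enter the tricarboxylic acid cycle, return ADP and phosphate to ATP synthase and bring the building blocks of mitochondrial DNA and RNA into the matrix. Brown adipocytes are packed with mitochondria that burn fuel as heat through UCP1, itself a relative of these carriers, while white adipocytes use the carriers in lipid synthesis and storage as well.

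Over all models, days and treatments, more carriers rose than fell in each depot. This mean effect of FGF21 raised 9 carriers and lowered 1 in IWAT, where 9.33% of all named genes were higher and 5.52% lower. In EWAT 5 rose and 2 fell (7.66% and 7.17% of all genes), in RPWAT 10 rose and 3 fell (9.75% and 6.81%), and in BAT 16 rose and 6 fell (16.3% and 20.6%). Most carriers are bright, and among genes at or above the median level of the depot the background was higher, 14.9% higher and 7.78% lower in IWAT, 11.5% and 11.1% in EWAT, 15.4% and 10.5% in RPWAT, and 23.9% and 32.0% in BAT. Of the carriers, 33 in IWAT, RPWAT and BAT and 32 in EWAT lie at or above that median. All of the calls except 1 fall in BAT came from these brighter carriers. The share of carriers that rose was above both backgrounds in IWAT, RPWAT and BAT, while in EWAT 5 of 39 is near the 11.5% of brighter genes. The share that fell was below both in IWAT, EWAT and BAT, on few carriers. In IWAT it rests on 1 carrier, and more fell without the 2 arrays that stood apart, as counted in the closing section. The share of all genes in that fit is not given. No test of the family as a whole was made. The median change over the 39 carriers was 0.056 in IWAT, 0.011 in EWAT, 0.027 in RPWAT and 0.063 in BAT, and that over all probe sets was between -0.002 and 0.013.

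Taken over depots, 3 carriers rose in all 4 and 3 more rose in 3. Slc25a33, Slc25a10 and Slc25a5 were the carriers that rose in every depot, and Slc25a17, Slc25a32 and Slc25a44 rose in 3. In all, 18 carriers rose in at least 1 depot and fell in none, 5 fell in at least 1 and rose in none, and 3 rose in at least 1 depot and fell in another. The carriers of opposite sign were Slc25a25, Slc25a42 and Slc25a26, each higher in RPWAT and lower in BAT. The test called 13 carriers in no depot.

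**Figure D1:**
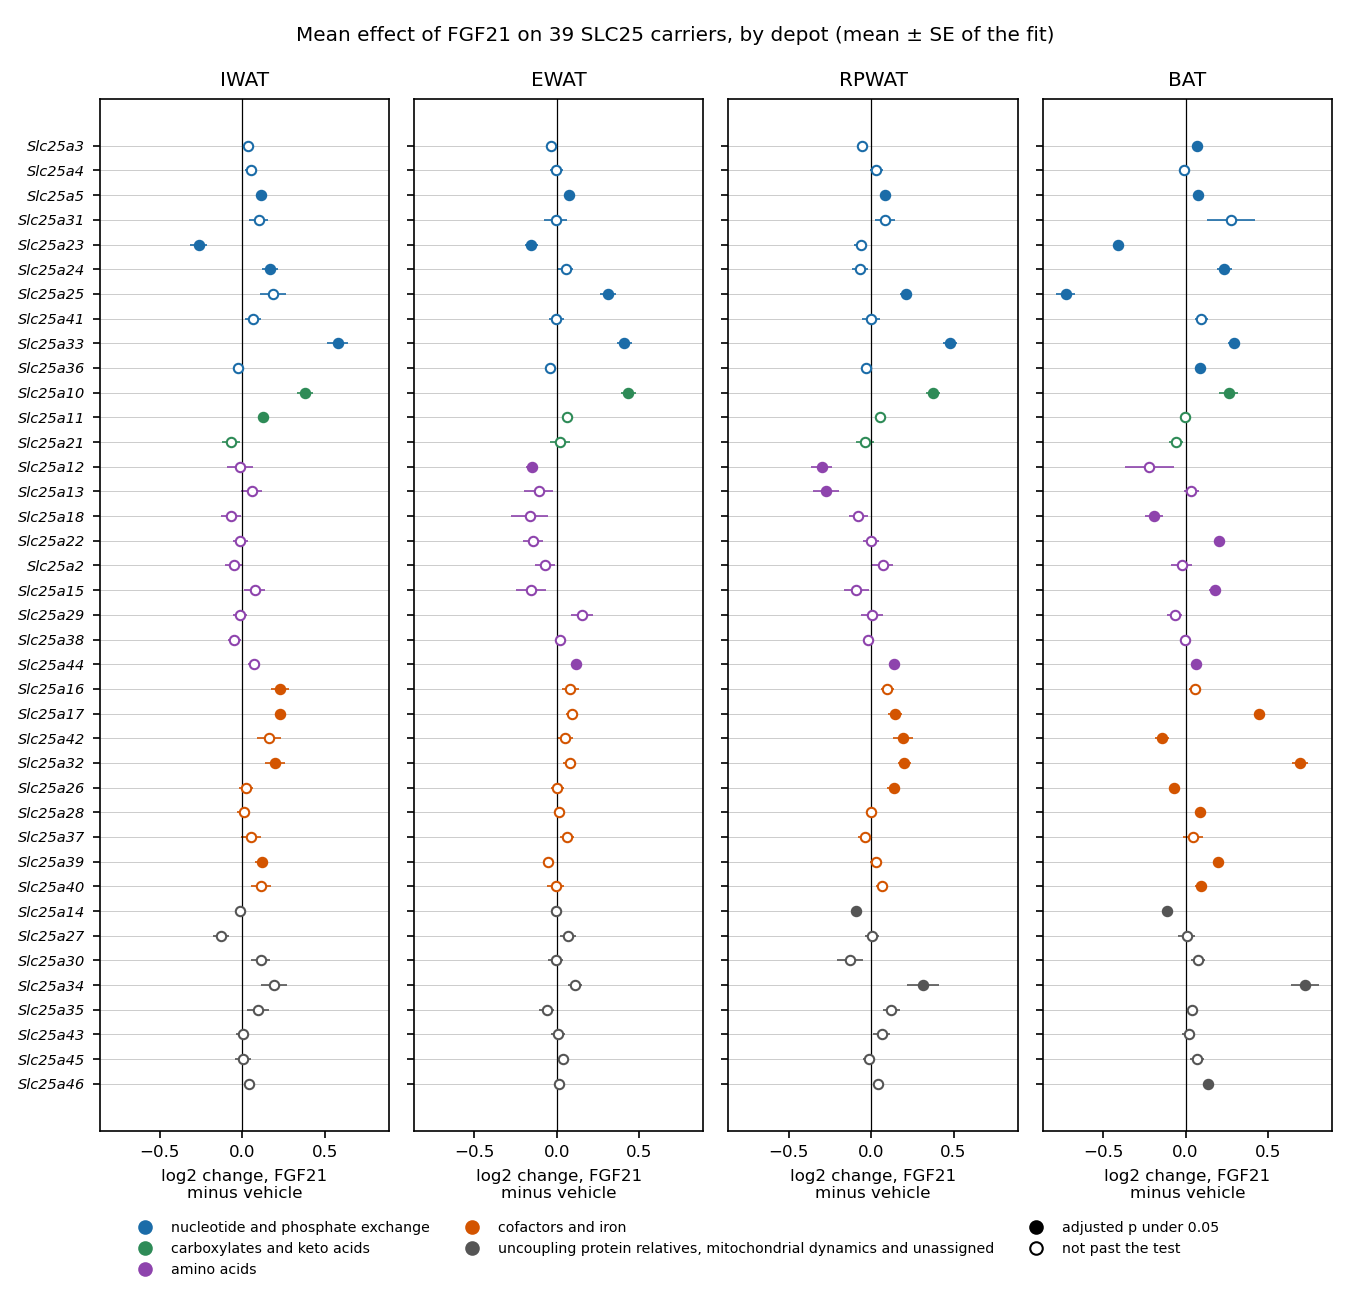
Mean log2 change between FGF21 and vehicle of each of the 39 carriers (rows, coloured by what they carry) in the 4 depots (panels), with the SE of the fit as bars. Filled points passed the test at an adjusted p under 0.05, and Slc25a33, Slc25a10 and Slc25a5 are filled on the right in every panel while Slc25a25 is filled on the right in EWAT and RPWAT and on the left in BAT.

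In the single comparisons of 1 treatment with vehicle of the same model and day, 18 for each depot, BAT had the most calls. Of the 702 pairs of a carrier and a comparison in each depot, 120 were higher and 49 lower in BAT, where 5.89% and 6.87% of such pairs of all genes passed. In IWAT 31 were higher and 5 lower (2.84% and 1.08% of all genes), in EWAT 29 and 8 (1.65% and 1.10%), and in RPWAT 38 and 10 (1.96% and 1.12%). Of the 351 pairs of each day, BAT had 40 higher and 12 lower at day 2 (3.92% and 4.41% of pairs of all genes) and 80 and 37 at day 5 (7.86% and 9.34%). RPWAT had 4 and 2 at day 2 (0.988% and 0.647%) and 34 and 8 at day 5 (2.93% and 1.59%), and EWAT had 4 and 5 at day 2 (1.34% and 0.901%) and 25 and 3 at day 5 (1.95% and 1.3%). The calls of all genes were also more frequent at day 5 in these 3 depots. IWAT had 14 and 4 at day 2 (4.99% and 1.47%) and 17 and 1 at day 5 (0.703% and 0.689%), so that calls of all genes there were more frequent at day 2. In IWAT 12 of the higher and 3 of the lower calls were those of db/db-chow mice at day 2, and all of them were gone when the 2 arrays that stood apart were left out, 1 of which is a vehicle array of that group. The IWAT total was then 28 higher and 4 lower. The share of all genes in that fit is not given, and the 2.84% and 1.08% above are those of the fit with all arrays.

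Slc25a33, which carries pyrimidine nucleotides into the matrix, had the largest mean rise of the family in IWAT and RPWAT. Its promoter is shown because Slc25a33 and Slc25a10 were higher in every depot, with Slc25a33 on chromosome 4 (GRCm38.p6, minus strand, chr4:149774218-149774517) and Slc25a10 on chromosome 11 (plus strand, chr11:120491587-120491886). Both windows run from 250 bases before to 50 after the start of the RefSeq transcript, and the capitals mark an E-box, CACGTG, which begins 8 bases before the start of Slc25a33.
Slc25a33: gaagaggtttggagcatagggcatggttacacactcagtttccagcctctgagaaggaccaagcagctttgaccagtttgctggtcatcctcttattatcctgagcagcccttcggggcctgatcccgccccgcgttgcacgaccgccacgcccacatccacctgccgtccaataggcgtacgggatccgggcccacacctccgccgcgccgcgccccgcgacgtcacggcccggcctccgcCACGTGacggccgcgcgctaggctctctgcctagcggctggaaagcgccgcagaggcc
Slc25a10: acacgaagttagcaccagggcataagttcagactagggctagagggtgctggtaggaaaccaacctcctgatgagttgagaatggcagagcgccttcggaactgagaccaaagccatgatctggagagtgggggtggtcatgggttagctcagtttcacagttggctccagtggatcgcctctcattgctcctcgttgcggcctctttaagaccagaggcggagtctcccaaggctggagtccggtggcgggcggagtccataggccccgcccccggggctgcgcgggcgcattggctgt
The E-box, read on both strands, is present in 7.15% of 32851 such promoter windows of all genes. Of the 39 windows of the 30 carriers with an entry, 7 hold it, and these belong to 6 carriers. It is not in this window of Slc25a10. The cAMP response element TGACGTCA is present in neither. The ERR motif TCAAGGTCA, the NRF1 motif GCGCATGCG and the ETS motif CCGGAAGT, present in 0.423%, 1.75% and 3.89% of all windows, were found in 0 of the 39 windows of the 30 carriers. A match describes the letters of the window and was not tested as a binding site.

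In RPWAT of WT-HFD mice at day 5, the 5 vehicle arrays read 159, 189, 171, 139 and 137 for Slc25a33. With WT FGF21 they read 339, 344, 355, 315 and 441, with the low dose 189, 204, 246, 258 and 238, and with the high dose 273, 322, 301, 258 and 302. All arrays of WT FGF21 and of the higher dose lay above all vehicle arrays, and the lower dose met them only at its lowest array. The log2 change of Slc25a33 was 1.18 (SE 0.12, adjusted p = 5.9e-12) with WT FGF21, 0.52 (SE 0.12, adjusted p = 0.0095) with 0.75 mg/kg and 0.88 (SE 0.12, adjusted p = 9.6e-08) with 2.5 mg/kg. The call at 0.75 mg/kg was lost without replicates 3, 4 or 5 of every group (adjusted p 0.066 to 0.29) and with only the arrays of that model in the fit (0.092) or by the methods' ANOVA after Benjamini-Hochberg (0.39).

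In IWAT of WT-HFD mice at day 5, vehicle arrays read 276, 233, 257, 198 and 208 for Slc25a33 and those of the high dose read 451, 495, 300, 355 and 479. The groups did not overlap, and the change was 0.81 (SE 0.19, adjusted p = 0.0064). It was not called without replicate 4 (adjusted p = 0.053) or replicate 5 (0.15) of every group, or by the methods' ANOVA (0.14). Averaged over models, days and treatments, Slc25a33 rose by 0.58 (SE 0.063, adjusted p = 4.7e-12) in IWAT, 0.48 (SE 0.043, 3.1e-16) in RPWAT, 0.41 (SE 0.044, 1.4e-12) in EWAT and 0.29 (SE 0.036, 4.0e-11) in BAT. It was above vehicle in all 18 comparisons in IWAT and RPWAT in 17 in EWAT and in 14 in BAT, where 3 were below it (lowest -0.14), and was called in 6, 11, 5 and 9 of them.

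The mean change of Slc25a33 with WT FGF21, the low dose and the high dose was 0.78, 0.39 and 0.57 in IWAT, 0.59, 0.22 and 0.42 in EWAT, 0.64, 0.33 and 0.46 in RPWAT, and 0.40, 0.16 and 0.32 in BAT. These 3 values share the vehicle arrays, and those of WT FGF21 and PEG30-FGF21 Q108 differ in dose and in time since injection, so that they stand side by side without a test. For Slc25a10, described next, IWAT had 0.26, 0.40 and 0.48, EWAT had 0.37, 0.36 and 0.57, and the values were 0.27, 0.38 and 0.47 in RPWAT, and 0.14 (not called), 0.24 and 0.41 in BAT. The IWAT values of both carriers include the arrays that stood apart.

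Slc25a10 is the dicarboxylate carrier, which exchanges malate and succinate for phosphate. In EWAT of WT-HFD mice at day 5, the 3 vehicle arrays read 1104, 979 and 1334 and the 5 arrays of the high dose read 2025, 2554, 3372, 2148 and 2532. Every treated array lay above every vehicle array, and the change was 1.14 (SE 0.15, adjusted p = 1.5e-08), or 2.20-fold. By the methods' ANOVA after Benjamini-Hochberg it did not pass (0.12). The mean effect on Slc25a10 was 0.43 (SE 0.045, adjusted p = 3.5e-13) in EWAT, 0.38 (SE 0.049, 1.6e-09) in IWAT, 0.38 (SE 0.042, 5.2e-12) in RPWAT and 0.26 (SE 0.059, 1.8e-04) in BAT. Single comparisons called it in 7 of 18 in EWAT, 3 in IWAT, 10 in RPWAT and 4 in BAT.

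In BAT the response of Slc25a10 differed between models. In db/db-chow mice at day 5, vehicle arrays read 205, 321, 250, 243 and 245 and arrays of the high dose read 418, 513, 467.5, 550 and 603, without overlap, a change of 1.02 (SE 0.18, adjusted p = 3.5e-06). In WT-chow mice at day 5, vehicle arrays read 142, 138, 193, 142 and 112 and treated arrays 99.8, 102, 107, 103 and 136. These groups overlapped, and the change of -0.39 (SE 0.18, adjusted p = 0.14) did not pass, though it did without replicate 5 of every group (-0.56, adjusted p = 0.038), which holds the reading of 136. At day 2 the high dose gave a rise in this model (0.73, SE 0.18). The difference of the mean response of Slc25a10 in BAT between db/db-chow and WT-chow mice was itself called, at 0.52 (SE 0.15, adjusted p = 0.0094), and was lost without replicate 3 of every group (0.36, adjusted p = 0.16). In EWAT it had the other sign, -0.39 (SE 0.11, adjusted p = 0.041), and was lost without replicates 1, 2, 4 or 5 and after quantile normalization (0.062).

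**Figure D2:**
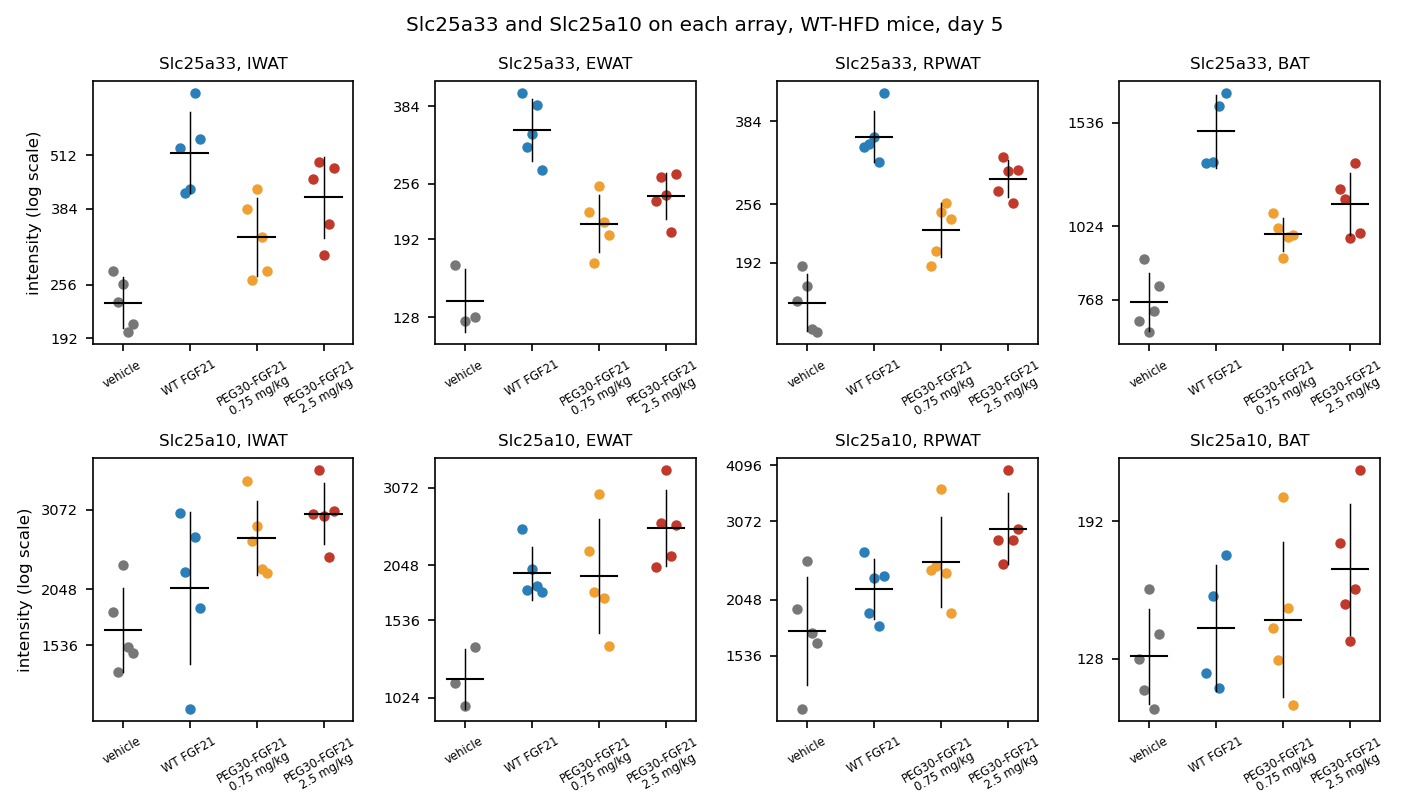
Intensity (log scale, a scale of its own in each panel) of Slc25a33 and Slc25a10 on each array of WT-HFD mice at day 5, by treatment and depot, with the mean and 1 SD of the log2 values as horizontal and vertical lines. All arrays of WT FGF21 lie above all vehicle arrays for Slc25a33 in each depot, and the 3 vehicle arrays of Slc25a10 in EWAT (979 to 1334) lie below the 5 arrays at 2.5 mg/kg (2025 to 3372). The IWAT arrays of WT FGF21 include replicate 3, which stood apart with an adipocyte marker sum of 5520.

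The carriers of ATP, ADP and phosphate changed little on the log2 scale. Slc25a5, the widely expressed ADP/ATP carrier, rose by 0.11 (SE 0.018, adjusted p = 9.0e-07) in IWAT, 0.07 (SE 0.023, 0.030) in EWAT, 0.08 (SE 0.019, 4.4e-04) in RPWAT and 0.08 (SE 0.010, 6.2e-10) in BAT. The EWAT call was lost without replicates 1, 2, 4 or 5 of every group and with the replicate number as a block (adjusted p = 0.064). The phosphate carrier Slc25a3 rose in BAT alone by this test, by 0.07 (SE 0.013, adjusted p = 3.2e-06), and the ADP/ATP carrier of muscle and heart, Slc25a4, was not called in any depot by its mean effect. Probe sets of the closely related Slc25a4, Slc25a5 and Slc25a31 may share sequence, so that their values are less certain. Of 8 measured genes that work with these carriers (voltage-dependent anion channels, creatine and adenylate kinases, cyclophilin D and hexokinase), 3 rose in IWAT, 2 in EWAT with 1 lower, 2 in RPWAT and 3 in BAT. Hexokinase Hk2 rose by 0.36 in BAT, 0.23 in IWAT, 0.14 in EWAT and 0.26 in RPWAT.

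The ATP-Mg/phosphate carriers, whose calcium-binding domain lets cytosolic calcium set the adenine nucleotide content of the matrix, moved apart from each other. Slc25a25 rose in EWAT and RPWAT, fell in BAT and was not called in IWAT. One of its 3 RefSeq promoter windows (chromosome 2, GRCm38.p6, minus strand, chr2:32424017-32424316) is shown because it holds a cAMP response element, TGACGTCA, in capitals, 150 bases before the start.
Slc25a25: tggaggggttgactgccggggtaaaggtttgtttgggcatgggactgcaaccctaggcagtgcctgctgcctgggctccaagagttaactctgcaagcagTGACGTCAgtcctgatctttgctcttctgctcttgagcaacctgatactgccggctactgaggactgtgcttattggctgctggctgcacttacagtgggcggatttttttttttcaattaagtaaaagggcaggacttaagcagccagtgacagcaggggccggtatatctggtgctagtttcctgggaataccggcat
The element is in 1.79% of all windows and in 2 of the 39 windows of the 30 carriers with an entry, those of Slc25a25 and Slc25a36. The other windows of Slc25a25 do not hold it. Which of the 3 starts is used in these tissues was not measured.

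In BAT of db/db-chow mice at day 5, vehicle arrays read 1296, 1224, 1182, 1200 and 1244 for Slc25a25 and those of the high dose read 406, 424, 501, 727 and 445. The lowest vehicle array was above the highest treated array, and the change was -1.33 (SE 0.18, adjusted p = 2.2e-09), or 0.398-fold. In EWAT of WT-chow mice at day 5, vehicle arrays read 1416, 991, 945, 780 and 1277 and treated arrays at the same dose read 1556, 2121, 2032, 2011 and 1766. Here all treated arrays were above all vehicle arrays, with a change of 0.83 (SE 0.13, adjusted p = 2.3e-06), which did not pass by the methods' ANOVA (0.076).

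The mean effect on Slc25a25 was -0.73 (SE 0.059, adjusted p = 6.3e-20) in BAT, 0.31 (SE 0.046, 1.2e-07) in EWAT and 0.21 (SE 0.037, 5.8e-06) in RPWAT, and it was 0.19 (SE 0.078, 0.11) in IWAT. It was lower in 17 of 18 comparisons in BAT, 13 of them called, and the exception was WT FGF21 in WT-chow mice at day 2 with 0.30, which did not pass. The difference between BAT and the mean of the white depots was -0.96 (SE 0.067, adjusted p = 5.8e-34). In BAT the mean change of Slc25a25 was -0.35 with WT FGF21, -0.83 with the low dose and -1.0 with the high dose, and it was -0.45 at day 2 and -1.0 at day 5, a difference between days of -0.55 (SE 0.12, adjusted p = 7.0e-04). In EWAT and RPWAT its response was smaller in db/db-chow than in WT-chow mice, by -0.40 (SE 0.11, adjusted p = 0.040) and -0.36 (SE 0.093, adjusted p = 0.021). Both of these differences were lost without replicates 2, 3 or 4 of every group. With the replicate number as a block they were lost too (adjusted p = 0.056 in EWAT and 0.053 in RPWAT). That of EWAT was also lost after quantile normalization (0.078).

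**Figure D3:**
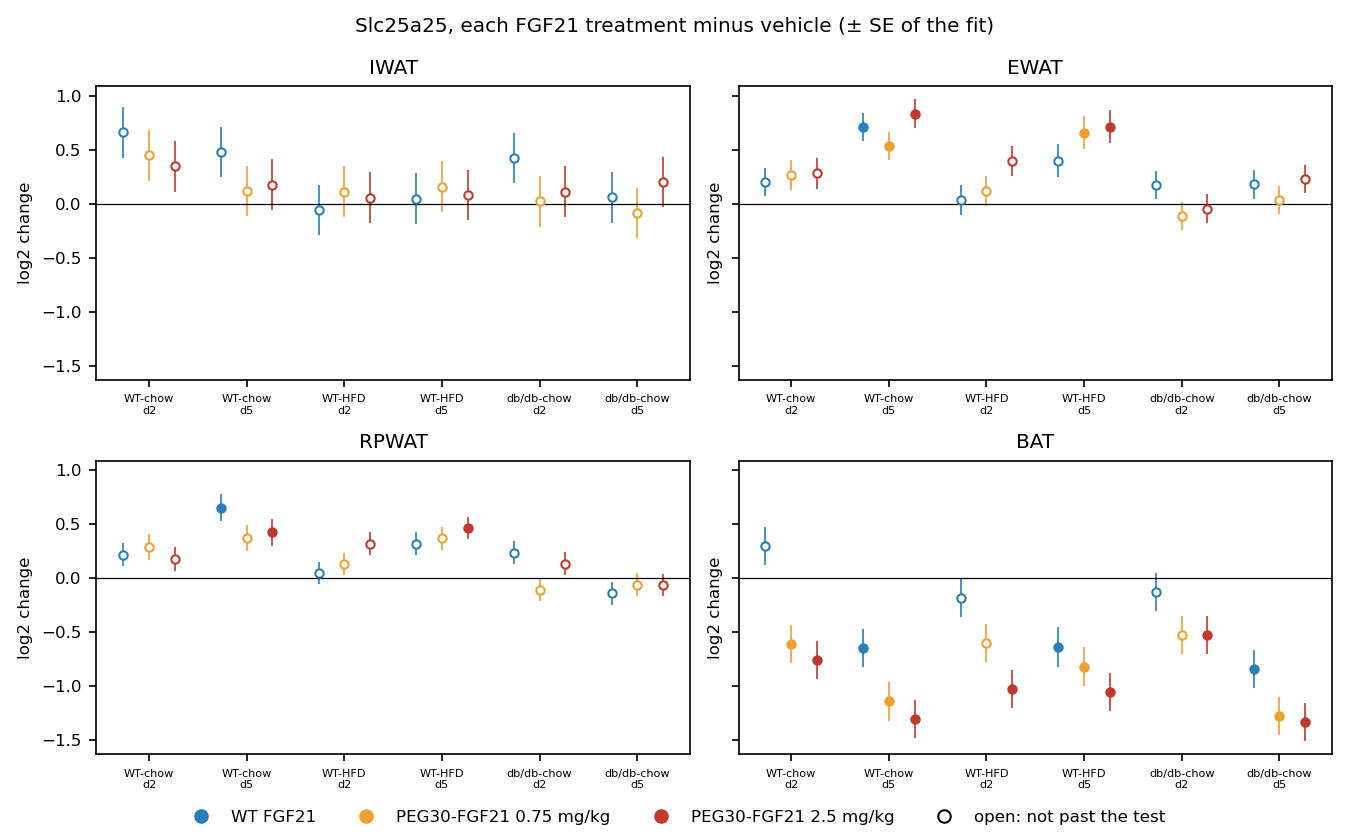
Log2 change of Slc25a25 with each treatment against vehicle of the same model and day (horizontal axis, d2 and d5 for day 2 and day 5), with the SE of the fit, in the 4 depots. Points in BAT reach -1.33 and 17 of 18 lie below 0, while 16 of 18 lie above 0 in EWAT and 14 of 18 in RPWAT.

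Slc25a23, a second carrier of this kind, fell in BAT, IWAT and EWAT. In BAT of WT-HFD mice at day 5, vehicle arrays read 1761, 1840, 1852, 1683 and 1647 and arrays of the high dose 957, 810, 1000, 959 and 750. The groups lay far apart, with a change of -0.98 (SE 0.086, adjusted p = 1.1e-16), or 0.507-fold. The mean effect was -0.41 (SE 0.029, adjusted p = 1.4e-23) in BAT, where all 18 comparisons were below 0 and 11 were called, -0.27 (SE 0.053, 9.9e-05) in IWAT and -0.15 (SE 0.039, 0.0029) in EWAT.

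In EWAT the 3 comparisons that passed for Slc25a23 were those of WT-chow mice at day 2. There vehicle arrays read 481, 461, 487, 506 and 480 and the 4 arrays of 2.5 mg/kg 385, 320, 352 and 352, a change of -0.46 (SE 0.12, adjusted p = 0.013) without overlap, which was not called without replicate 3 (0.12). At day 5 in db/db-chow mice, vehicle arrays read 554, 617, 571, 552 and 584 and treated arrays 623, 489, 554, 535 and 571, which overlapped (-0.06, SE 0.11, adjusted p = 0.89). In IWAT of WT-HFD mice at day 5, vehicle arrays read 913, 801, 838, 941 and 780 and treated arrays 744, 820, 636, 514 and 808, again with overlap (-0.30, SE 0.16, adjusted p = 0.45). The second probe set of Slc25a23 was also lower in BAT and was not called in IWAT or EWAT, and without replicate 2 of every group the EWAT call of the first was lost.

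Slc25a24, another such carrier, rose by 0.23 (SE 0.046, adjusted p = 1.5e-05) in BAT and 0.17 (SE 0.049, 0.013) in IWAT. The largest single changes of Slc25a24 in IWAT, 0.53, 0.73 and 0.64 in db/db-chow mice at day 2, became 0.28, 0.49 and 0.39 without the 2 arrays that stood apart and were then not called (adjusted p 0.057 to 0.49). The mean effect in IWAT was then 0.12 (adjusted p = 0.038), and it was not called without replicate 2 or replicate 4 of every group (adjusted p = 0.14 for both). In EWAT, the response of Slc25a24 at day 5 was below that at day 2 by -0.38 (SE 0.090, adjusted p = 0.011), a difference lost without replicates 1, 2 or 4. With the replicate number as a block this difference was lost too (adjusted p = 0.051). Slc25a36, the second pyrimidine nucleotide carrier, rose by 0.09 (SE 0.019, adjusted p = 1.4e-04) in BAT and was not called elsewhere. Of the 10 carriers of nucleotides and phosphate, 5 rose and 2 fell in BAT, 3 rose and 1 fell in IWAT and in EWAT, and 3 rose in RPWAT. Over all genes 16.3% rose and 20.6% fell in BAT and between 7.66% and 9.75% rose in the white depots, so that the falls in BAT are at the background.

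Among the cofactor carriers, Slc25a17 and Slc25a32 rose most steadily in BAT. Slc25a17, the peroxisomal carrier of CoA, FAD and NAD+, read 1019, 1051, 1350, 1300 and 1153 on vehicle arrays of BAT of db/db-chow mice at day 5 and 1923, 2238, 1939, 1825 and 1541 with the high dose. No treated array fell within the vehicle range, and the change was 0.69 (SE 0.089, adjusted p = 8.2e-10). Its mean effect in BAT was 0.45 (SE 0.030, adjusted p = 3.3e-25), above 0 in all 18 comparisons and called in 16. It rose by 0.23 (SE 0.030, 2.9e-09) in IWAT and 0.14 (SE 0.042, 0.012) in RPWAT as well. BAT exceeded the white depots by 0.29 (SE 0.040, adjusted p = 1.0e-10) for Slc25a17.

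Slc25a32, which brings folate and FAD into the matrix, read 177, 168, 211, 166 and 194 on vehicle arrays of BAT of db/db-chow mice at day 2 and 723, 683, 444, 372 and 367 with the high dose. All treated arrays lay above the vehicle arrays, but they spread from 367 to 723, and the change was 1.44 (SE 0.14, adjusted p = 7.4e-14), or 2.72-fold. The mean effect was 0.69 (SE 0.048, adjusted p = 2.6e-24) in BAT, called in 13 of 18 comparisons, 0.20 (SE 0.039, 6.3e-05) in RPWAT and 0.20 (SE 0.058, 0.013) in IWAT. The IWAT value of Slc25a32 was 0.11 (adjusted p = 0.015) without the 2 arrays that stood apart, and in db/db-chow mice at day 2 it went from 0.59, 0.49 and 0.46 to values between -0.03 and 0.10, none of them called. Without replicate 2 of every group its IWAT mean effect was 0.10 (adjusted p = 0.11). The rise in BAT was larger than that of the white depots by 0.53 (SE 0.054, adjusted p = 2.6e-18).

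Slc25a39, a glutathione carrier, rose by 0.20 (SE 0.021, adjusted p = 3.6e-14) in BAT and 0.12 (SE 0.038, 0.030) in IWAT, and its relative Slc25a40 by 0.09 (SE 0.034, 0.028) in BAT. The mitoferrin gene Slc25a28, an iron carrier, rose by 0.08 (SE 0.026, 0.0070) in BAT, and Slc25a16, grouped here with the cofactor carriers, by 0.23 (SE 0.057, 0.0022) in IWAT. Slc25a16 was not called in IWAT without replicate 2 of every group. Slc25a26, the carrier of S-adenosylmethionine, rose by 0.14 (SE 0.039, 0.0088) in RPWAT and fell by 0.07 (SE 0.023, 0.0091) in BAT, where it was not called without replicate 1 (0.25). In BAT 5 of 9 carriers of cofactors and iron rose and 2 fell, in IWAT and RPWAT 4 rose, and in EWAT 0 of the 9 passed in limma. Over all genes 16.3% rose in BAT, 9.33% in IWAT and 9.75% in RPWAT. Among genes at or above the median level of the depot these shares were 23.9%, 14.9% and 15.4%. The falls in BAT are near the 20.6% of all genes that fell there, and in EWAT 7.66% of all genes rose and 7.17% fell.

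Slc25a42, which exchanges CoA for adenine nucleotides, responded by model as well as depot. In EWAT of db/db-chow mice at day 5, vehicle arrays read 310, 212, 312, 295 and 277 and arrays of 2.5 mg/kg 398, 511, 592, 529 and 576, without overlap, a change of 0.89 (SE 0.14, adjusted p = 3.4e-05), which did not pass by the methods' ANOVA (0.12). Slc25a42 also passed with each treatment in RPWAT of db/db-chow mice at day 5, with 0.78 for WT FGF21, 0.71 for 0.75 mg/kg and 0.80 for 2.5 mg/kg. In EWAT the mean response of db/db-chow exceeded that of WT-chow mice by 0.62 (SE 0.12, adjusted p = 3.5e-04), and in BAT it was below it by -0.35 (SE 0.11, 0.021). Over all models Slc25a42 rose by 0.19 (SE 0.060, 0.018) in RPWAT, which was lost without replicates 3 or 4, and fell by 0.14 (SE 0.043, 0.0055) in BAT.

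Slc25a34 had the largest single change of the family, in BAT. The substrate of this carrier is not assigned. In WT-chow mice at day 5, vehicle arrays read 117, 97.2, 69.6, 229 and 204 and arrays of the high dose read 592, 666, 741, 744 and 650. The treated arrays were close together and far above the vehicle arrays, which spread widely, and the change was 2.38 (SE 0.25, adjusted p = 5.3e-13), or 5.20-fold. With the low dose it was 2.49 and with WT FGF21 1.52. In db/db-chow mice at day 5, vehicle arrays read 67.5, 87.4, 52.2, 62.2 and 71.4 and treated arrays 70.6, 106, 68.1, 102 and 77.9, with overlap, and the change of 0.31 (SE 0.25, adjusted p = 0.43) did not pass.

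The mean effect on Slc25a34 was 1.44 (SE 0.14) in WT-chow, 0.78 (SE 0.14) in WT-HFD and -0.04 (SE 0.14) in db/db-chow mice in BAT, and 0.73 (SE 0.083, adjusted p = 1.5e-12) over the 3 models. The response of db/db-chow mice was below that of WT-chow mice by -1.48 (SE 0.20, adjusted p = 1.8e-08). WT-HFD differed from WT-chow by -0.67 (SE 0.20, adjusted p = 0.046), and this was lost without each of the replicates 1 to 5. With all arrays kept it was lost after quantile normalization (adjusted p = 0.069), with the replicate number as a block (0.056) and with marker levels as covariates (0.06). In WT-HFD mice at day 5, the change of Slc25a34 in BAT was -0.07 with WT FGF21 against 1.26 with the low dose, and the high dose gave a 2.00-fold rise. In RPWAT the mean effect was 0.32 (SE 0.099, 0.019), which was lost without replicates 3, 4 or 5.

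**Figure D4:**
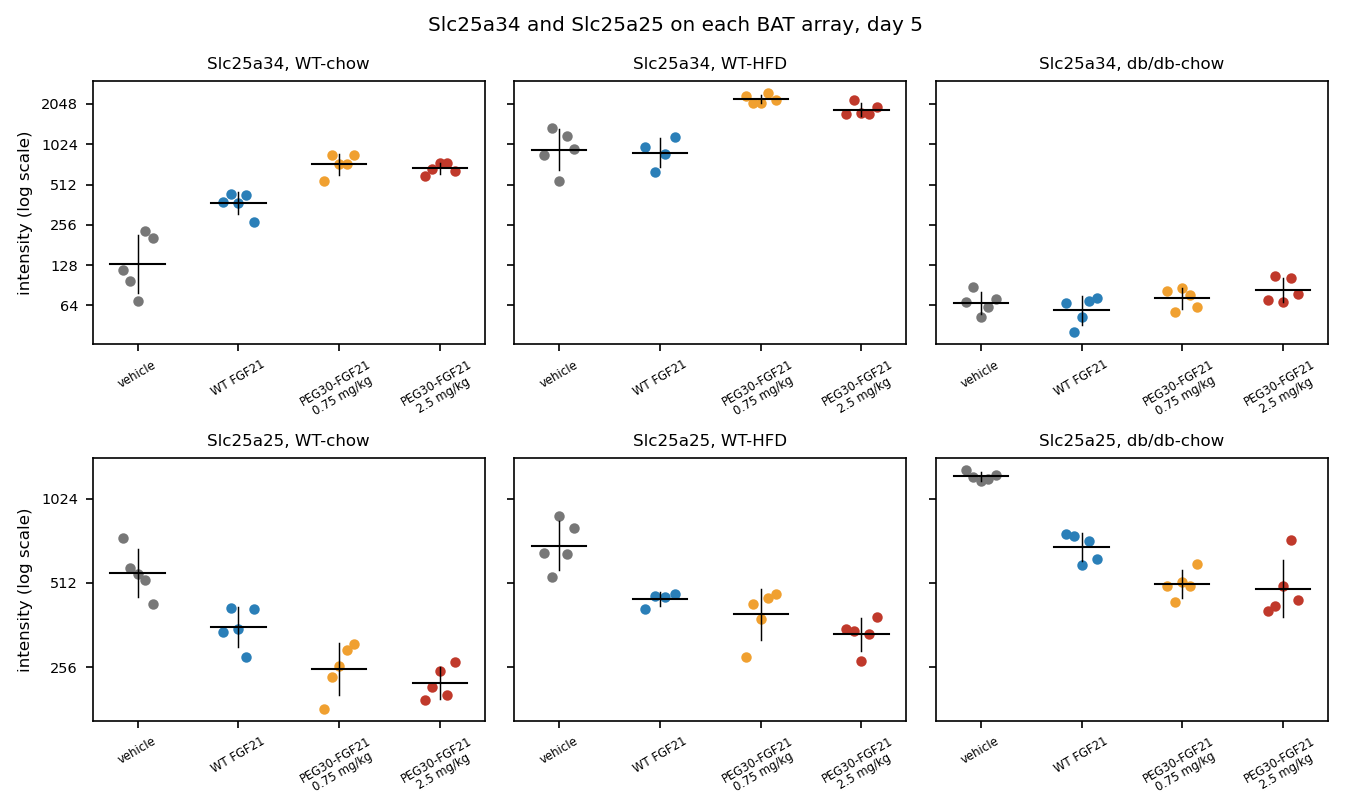
Intensity (log scale, shared along a row) of Slc25a34 and Slc25a25 on each BAT array at day 5, by treatment and model, with the mean and 1 SD of the log2 values as lines. Slc25a34 rises from 69.6 to 229 on vehicle arrays to 592 to 744 at 2.5 mg/kg in WT-chow mice but stays between 52.2 and 106 in the vehicle and 2.5 mg/kg arrays of db/db-chow mice, while Slc25a25 is lower after treatment in the 3 models.

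Slc25a35, also without an assigned substrate, took opposite directions in BAT of the models. In db/db-chow mice at day 5, vehicle arrays read 1089, 1122, 1238, 895 and 1014 and arrays of 2.5 mg/kg 1617, 1666, 1446, 1585 and 1855. Here the groups did not overlap, and the change was 0.61 (SE 0.091, adjusted p = 5.6e-08). In WT-HFD mice at day 5, Slc25a35 was lower with WT FGF21 (-0.31) and with 0.75 mg/kg (-0.34), and both passed. The mean responses of Slc25a35 in db/db-chow and WT-chow mice differed by 0.45 (SE 0.074, adjusted p = 2.0e-06) in BAT and by 0.51 (SE 0.13, 0.021) in RPWAT. In RPWAT of db/db-chow mice at day 5 all 3 treatments passed, with 0.68, 0.83 and 0.68. There Slc25a45 differed the other way between these models, by -0.32 (SE 0.091, adjusted p = 0.037). Both RPWAT differences were lost without replicates 1, 3, 4 or 5. That of Slc25a45 was also lost with the replicate number as a block (adjusted p = 0.1) and with marker levels as covariates (0.077).

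**Figure D5:**
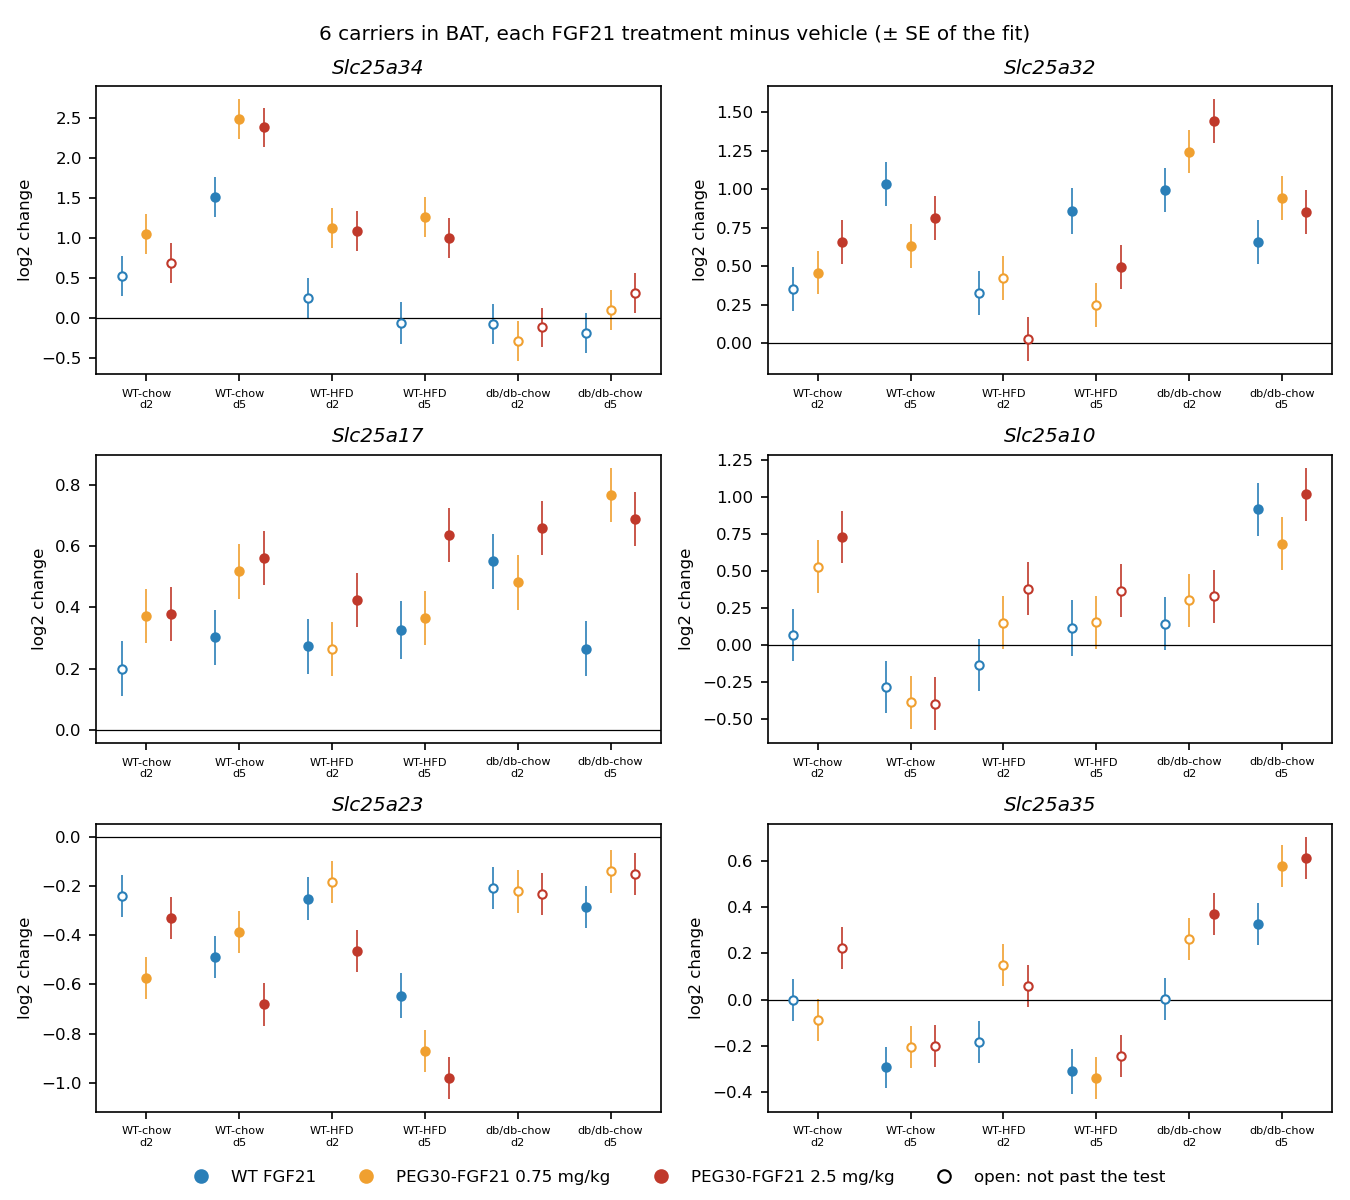
Log2 change in BAT of 6 carriers with each treatment against vehicle of the same model and day, with the SE of the fit and a scale of its own in each panel. Slc25a34 reaches 2.49 in WT-chow mice and does not pass in db/db-chow mice, Slc25a32 and Slc25a17 lie above 0 in all 18 comparisons, Slc25a23 lies below 0 in all 18, and Slc25a10 and Slc25a35 lie on both sides of 0.

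Of the 9 carriers of amino acids, 0 were called in IWAT, 1 rose and 1 fell in EWAT, 1 rose and 2 fell in RPWAT, and 3 rose and 1 fell in BAT, which in the white depots is near the shares of all genes given above. The aspartate/glutamate carrier Slc25a12, part of the malate-aspartate shuttle that moves NADH equivalents into mitochondria, fell by 0.30 (SE 0.066, adjusted p = 3.4e-04) in RPWAT and 0.15 (SE 0.036, 0.0015) in EWAT, and its paralog Slc25a13 by 0.28 (SE 0.079, 0.0093) in RPWAT. In RPWAT of db/db-chow mice at day 5, vehicle arrays of Slc25a12 read 505, 489, 453, 519 and 299 and arrays of 2.5 mg/kg 395, 338, 213, 196 and 242. The lowest vehicle array fell within the treated range, and the change was -0.74 (SE 0.19, adjusted p = 0.013), not called without replicate 3 (0.12) or replicate 4 (0.24) of every group or with both probe sets averaged (-0.49, 0.15) or by the methods' ANOVA (0.20). With WT FGF21 it was -1.01 and with the low dose -0.62, both called. The second probe set of Slc25a12 was not called in RPWAT (-0.16) or EWAT (0.04), and with the sets averaged the EWAT value was -0.05 (adjusted p = 0.35), while that of Slc25a13 was lower in RPWAT (-0.30).

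Markers of kidney and adrenal gland, which lie beside this depot, varied widely between RPWAT arrays. The summed intensity of their 6 markers was 118 to 12700 on vehicle arrays (median 1900) and 111 to 14800 on FGF21 arrays (median 346), and their median change was -0.65 with 0 of 6 called. In the db/db-chow groups at day 5 the sum was 1230 to 12700 (median 11500) with vehicle, 339 to 4260 (median 1060) with WT FGF21, 113 to 10400 (median 1720) with 0.75 mg/kg and 929 to 10900 (median 6250) with 2.5 mg/kg. In WT-chow mice at day 5 the medians were 3670 with vehicle, 416 with WT FGF21, 129 with 0.75 mg/kg and 131 with 2.5 mg/kg. The 3 RPWAT comparisons that called Slc25a12 were those of db/db-chow mice at day 5. The called rises of Slc25a42 and Slc25a35 in RPWAT, 3 for each, came from the same comparisons. How closely the markers followed the carriers was not tested. With the mean log2 level of the kidney and adrenal, muscle, epididymis and lymphocyte markers as covariates, a fit added after seeing the data, Slc25a12 in RPWAT was -0.22 (SE 0.058, adjusted p = 0.0052), while Slc25a13 (-0.22, adjusted p = 0.063) and the uncoupling protein relative Slc25a14 (-0.06, against -0.09 before, adjusted p = 0.21 against 0.047) were no longer called. Slc25a13 was also lost without replicate 4 or 5 of every group, and Slc25a14 without replicate 3, 4 or 5 and with the replicate number as a block (0.067). Of the 10 skeletal muscle markers, 0 were called in IWAT, where their median was 0.42, and 1 was lower in BAT, where it was -0.46. Their sum ran from 3490 to 109000 on vehicle arrays of IWAT and from 2550 to 76300 on those of BAT. In EWAT the sum of 6 epididymis and testis markers was 57.4 to 11400 on vehicle arrays (median 90.5) and 59.4 to 1700 on FGF21 arrays (median 83.8). The calls of mean effects in BAT were the same 22 carriers with and without these covariates.

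In BAT, the glutamate carrier Slc25a22 rose by 0.21 (SE 0.028, adjusted p = 1.6e-09) and was called in 9 of 18 comparisons, and the second glutamate carrier Slc25a18 fell by 0.19 (SE 0.056, 0.0048). For Slc25a22 in db/db-chow mice at day 5, vehicle arrays read 538, 605, 604, 530 and 523 and arrays of 2.5 mg/kg 693, 744, 655, 667 and 935, without overlap (0.39, SE 0.085, adjusted p = 2.4e-04). Slc25a18 was dim, with readings of 16.9 to 42.6 on vehicle arrays and 12.8 to 15.8 at the high dose in that model and day, and its mean effect was lost without replicate 2 of every group. The ornithine carrier Slc25a15 rose by 0.18 (SE 0.035, 1.2e-05). Slc25a44, the carrier of branched-chain amino acids known from brown fat, rose by 0.06 (SE 0.019, 0.0051) in BAT, 0.11 (SE 0.029, 0.0028) in EWAT and 0.14 (SE 0.032, 6.5e-04) in RPWAT.

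Of the remaining carriers with a call, Slc25a11, which exchanges oxoglutarate for malate, rose by 0.12 (SE 0.023, adjusted p = 4.2e-05) in IWAT. Slc25a46, an outer membrane protein of mitochondrial dynamics, rose by 0.13 (SE 0.017, 6.0e-11) in BAT, where Slc25a14 fell by 0.12 (SE 0.030, 0.0012). The 13 carriers without a called mean effect in any depot were Slc25a2, Slc25a4, Slc25a21, Slc25a27, Slc25a29, Slc25a30, Slc25a31, Slc25a35, Slc25a37, Slc25a38, Slc25a41, Slc25a43 and Slc25a45. Of these Slc25a35, Slc25a27 and Slc25a30 passed in both directions in single comparisons of different models in BAT. Slc25a31, an ADP/ATP carrier known from testis, was dim, with BAT readings of 6.30 to 15.5 on vehicle arrays of WT-HFD mice at day 5 and 12.4 to 53.4 on 4 arrays of WT FGF21, which overlapped (1.53, SE 0.46, adjusted p = 0.017). This group of Slc25a31 was chosen after its values were seen.

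For the time course, the mean effect at day 5 was compared with that at day 2. In EWAT the difference passed for 4 carriers (1.65% of all genes), among them Slc25a10 with 0.39 (SE 0.091, adjusted p = 0.010) and Slc25a33 with 0.38 (SE 0.088, 0.0086). In RPWAT it passed for 2 carriers (2.14%), Slc25a33 with 0.50 (SE 0.085, adjusted p = 1.4e-04) and Slc25a10 with 0.33 (SE 0.083, 0.016). In BAT it passed for 7 carriers (7.44%), of which 3 were positive and 4 negative, with Slc25a15 at 0.33 (SE 0.070, 5.1e-04), Slc25a18 at -0.40 (SE 0.11, 0.017) and Slc25a25, given above, as the largest. In IWAT 0 carriers passed in limma (0.041% of all genes). Leaving out single replicates of every group ended the call of Slc25a10 in EWAT (1, 2 or 4) and RPWAT (1, 2, 4 or 5), of Slc25a33 in EWAT (2, 4 or 5) and of Slc25a18 in BAT (1, 2 or 5). With marker covariates the calls of Slc25a33 in EWAT (adjusted p = 0.059) and Slc25a10 in RPWAT (0.054) were lost.

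The higher dose of PEG30-FGF21 Q108 differed from the lower dose for few carriers. Slc25a10 in EWAT was higher at 2.5 than at 0.75 mg/kg by 0.21 (SE 0.054, adjusted p = 0.048), the 1 carrier that passed there (0.483% of all genes), and Slc25a33 in BAT by 0.16 (SE 0.045, 0.037), the 1 that passed in BAT (2.33%). In IWAT and RPWAT 0 carriers passed (0.0274% and 0.465%). Both differences were lost without single replicates of every group, replicates 2 to 5 for Slc25a10 and 1, 3, 4 or 5 for Slc25a33. With the replicate number as a block both were lost as well (adjusted p = 0.052 and 0.053). Slc25a10 was also lost after quantile normalization (0.076) and with marker covariates (0.089).

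Between models, the mean response of db/db-chow against WT-chow mice differed for 11 carriers in BAT (11.6% of all genes), 3 in EWAT (1.52%), 3 in RPWAT (2.37%) and 0 in IWAT (2.15%). WT-HFD differed from WT-chow for 2 carriers in BAT (4.45%), Slc25a34 and Slc25a33, the latter with 0.35 (SE 0.089, adjusted p = 0.010), not called without replicate 4 (0.14). It differed for 0 carriers in the white depots, where 0% of all genes passed in IWAT, 0.465% in EWAT and 0.720% in RPWAT. Between BAT and the mean of the white depots the response differed for 17 carriers, 10 higher in BAT (9.62% of all genes) and 7 lower (16.5%). Slc25a25, Slc25a32 and Slc25a34, with 0.52 (SE 0.091, adjusted p = 4.8e-07), had the largest differences.

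Genes that work beside the carriers were counted in the same way. The mitochondrial pyruvate carrier, which is not of the SLC25 family, has its subunits on the array under their older names Brp44 and Brp44l, and both rose in every depot, Brp44 by 0.53 in BAT, 0.33 in IWAT, 0.24 in RPWAT and 0.12 in EWAT. Of 13 genes of mitochondrial protein import and dynamics, 11 rose in IWAT, 10 in BAT, 7 in RPWAT and 2 in EWAT, for example the small Tim chaperone Timm9 with 0.32 in IWAT and 0.30 in BAT. Of 7 measured malate-aspartate and citrate genes, 3 rose and 1 fell in BAT with a median of 0.01. These were the cytosolic enzymes Mdh1 (0.68) and Got1 (0.88), ATP citrate lyase Acly (0.49) and, lower, the mitochondrial isocitrate dehydrogenase Idh2 (-0.22), while Slc25a12 and Slc25a13 were not called there. Alas1, the first enzyme of heme synthesis, fell in every depot, by 0.19 in BAT, 0.22 in IWAT, 0.36 in RPWAT and 0.44 in EWAT. Of 7 brown adipocyte markers, 4 rose in IWAT (median change 0.35), 2 rose in RPWAT (0.46), and 5 rose and 1 fell in BAT (0.10). In EWAT 2 of them rose and 2 fell (-0.05). Endothelial markers were lower with treatment in the same arrays, 6 of 6 in IWAT, 5 in EWAT and 3 in RPWAT and BAT, with 1 higher in BAT, and 5 of 5 macrophage markers were lower in BAT. The part of these shifts in the carriers' changes was not tested.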

How the data were processed

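The authors hybridized amplified RNA to custom Affymetrix mouse arrays, processed the scans by RMA in Rosetta Resolver in a version not given in the sources used here. They deposited 1 table of intensity values on a linear scale, from 1.653 to 22400 for 43681 probe sets on every array. Values were used as deposited and converted to log2 without further scaling. All arrays were mapped to their groups by their labels, and 0 columns were left over. The platform annotation gives 1 symbol for 30342 probe sets, none for 13339 and several for 0. The methods' filter on present calls was not applied here, and intensities carry no detection call.

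For each depot, limma 3.58.1 in R 4.3.3 modelled all arrays by 24 group means and a trend in the prior variance. P-values were adjusted by Benjamini-Hochberg over all probe sets of each comparison. The mean effect is the average of 18 comparisons of a treatment with vehicle. BAT and white depots were compared in 1 fit of all arrays, in which depots of the same mouse, not linked by the labels, count as independent. The steps were checked on simulated data. Percentages of all genes use 1 probe set per named gene.

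The carriers, gene lists, thresholds and rules were chosen with earlier results of these data known. Carriers were named by rule, up to the 6 largest rises and 6 largest falls of the mean effect per depot, those called in 9 or more of 18 comparisons of a depot in 1 direction, and the 3 largest of each tested difference. Arrays are given for the largest rise and fall of each depot at 2.5 mg/kg and day 5, in the model with the largest change. Further groups and carriers were chosen after their values were seen. The lack of overlap and the adjusted p-values of such groups therefore come from groups picked by their values, and other models can show less. Alternatives were quantile normalization, a filter on low values, array weights, the replicate number as a block, each replicate left out, averaged probe sets, arrays that stood apart left out, the methods' thresholds and ANOVA and a fit within model. Marker covariates and single days were added after seeing the data. Promoter sequences are from RefSeq (GRCm38.p6), which matched 30 of 39 carriers. Precision is limited by how many arrays a group holds.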

Additional observations from a re-analysis of the deposited data

Results flagged for a closer look

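These carriers had responses that differed between days, doses, models or depots by the test of the difference itself in limma, given as log2 differences. Day 5 exceeded day 2 for Slc25a10 by 0.39 in EWAT and 0.33 in RPWAT, for Slc25a33 by 0.38 in EWAT and 0.50 in RPWAT, and for Slc25a15 by 0.33 in BAT. Day 5 was below day 2 for Slc25a24 in EWAT (-0.38) and for Slc25a25 (-0.55) and Slc25a18 (-0.40) in BAT. The higher dose of PEG30-FGF21 Q108 exceeded the lower by 0.21 for Slc25a10 in EWAT and 0.16 for Slc25a33 in BAT.

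Between WT-HFD and WT-chow mice, the response in BAT differed for Slc25a34 (-0.67) and Slc25a33 (0.35). Between db/db-chow and WT-chow mice it differed in BAT for Slc25a34 (-1.48), Slc25a10 (0.52) and Slc25a35 (0.45), in EWAT for Slc25a42 (0.62), Slc25a25 (-0.40) and Slc25a10 (-0.39), and in RPWAT for Slc25a35 (0.51), Slc25a25 (-0.36) and Slc25a45 (-0.32). BAT differed from the white depots for Slc25a25 (-0.96), Slc25a32 (0.53) and Slc25a34 (0.52).

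Among 39 groups of 4 or 5 arrays whose values are given one by one, 1 held an array far from the others, the reading of 136 for Slc25a10 in BAT of WT-chow mice at day 5 with 2.5 mg/kg, beside 99.8 to 107 on the other 4. Chance alone flags about 5% of groups.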

How the results depend on the processing

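Of 60 results for named carriers, 0 turned direction under any alternative run, and 27 lost their call under at least 1, 13 of these only with a replicate left out. The BAT minus white depot differences were fitted in 1 way only. Counts are of carriers for mean effects and of pairs of a carrier and a comparison for single comparisons. Carriers lower by the mean effect in IWAT numbered 1, and 2 after quantile normalization, 2 with the filter on low values, 3 with array weights, 2 with marker covariates, 4 without the 2 arrays that stood apart and 1 to 3 with a replicate left out. In EWAT 2 were lower, and 1 with averaged probe sets, 1 at day 5 alone and 1 to 2 with a replicate left out. In RPWAT 10 were higher and 3 lower, with 4 and 1 at day 2 alone, 1 lower with marker covariates, and 6 to 10 higher and 1 to 4 lower with a replicate left out. In BAT 6 were lower, and 3 at the methods' p under 0.001 and 3 at day 2 alone.

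For single comparisons, the methods' ANOVA at p under 0.05 and a fold of 1.2 gave 56 higher and 16 lower in IWAT. It gave 55 higher and 25 lower in EWAT and 59 higher and 25 lower in RPWAT. After Benjamini-Hochberg it left no pair in IWAT (0 higher, 0 lower), 4 higher and 4 lower in EWAT, 21 and 6 in RPWAT, and 69 and 25 in BAT. The p under 0.05 with the fold of 1.2 was not adjusted for multiple testing. No share of all genes is given for the counts of these alternatives, so that they are not a result about the family. Lower pairs in IWAT (5) were 2 with the filter, 3 with the replicate block, 2 with marker covariates, 2 in the fit within model and 2 to 4 with a replicate left out. In EWAT 29 were higher and 8 lower, 17 lower with array weights, and 18 to 27 higher and 3 to 8 lower with a replicate left out. In RPWAT 38 were higher and 10 lower, 16 lower with the filter, 6 with the replicate block, 5 with marker covariates, and 21 to 34 higher and 3 to 13 lower with a replicate left out. Other counts stayed within 1.5 times. In 0 of 24 sets was every pair of same-numbered arrays correlated above 0.1, and the median correlation of a set ranged from -0.114 to 0.112. Since the rule asks this of every pair, it cannot exclude that replicate numbers pair some of the arrays. With the replicate block, the higher mean effects numbered 9 in IWAT, 4 in EWAT, 10 in RPWAT and 16 in BAT and the lower ones 1, 2, 2 and 6. The cause of these moves was not tested.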
